A study of Mus musculus with 14 samples.

Results

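Bulge stem cells of the hair follicle, taken from depilated dorsal skin and called activated bulge here, were set against interfollicular epidermis of resting (telogen) dorsal skin in wild-type C57BL/6 mice aged 2 months. The comparison used 4 libraries of the 14 in the series, 2 of activated bulge and 2 of epidermis, assigned to groups by their labels. It was chosen with earlier results of these data known. Both populations were sorted by flow cytometry, and RNA was measured by mRNA sequencing. Cell population and treatment differ together between the groups, since no epidermis of depilated skin is among these 4 libraries, so an effect of depilation and a difference between follicle and epidermis cannot be told apart in it. Values of resting bulge from telogen skin, 2 libraries of the same age, are therefore given beside the main values where they help to read them. The labels give no sex, no interval between depilation and sorting, no sort markers, and nothing on whether replicate libraries stem from different mice. A p-value here reflects library-to-library spread alone, which may be technical.

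The bulge is the lower part of the permanent hair follicle, where stem cells rest between rounds of hair growth. Pulling out the hair starts a new growth phase, in which bulge and hair germ cells divide under Wnt, Hedgehog and FGF signals while BMP signals hold them at rest. The interfollicular epidermis renews itself continuously from a basal layer that produces its own Wnt ligands and feeds the differentiating, barrier-forming layers above.

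Levels are in FPKM (fragment density along a transcript, corrected for the size of the library), and differences are on the log2(FPKM + 1) scale as activated bulge minus epidermis with their standard error (SE). This scale understates differences of low genes. A gene was called when its limma p-value, adjusted by Benjamini-Hochberg over all genes tested, was under 0.05. Estimated depth was 34.5 and 32.0 mega-fragments in activated bulge replicates 1 and 2 and 39.9 and 22.5 in epidermis. The correlation over genes, given as a description since genes of 1 library share its depth, was 0.919 between the activated replicates, 0.943 between the epidermis replicates and 0.902 between replicate 1 of each population. In both groups replicate 2 exceeded replicate 1 more in longer transcripts (Spearman 0.54 and 0.53 across genes). The activated libraries held Xist at 15.7 and 104 FPKM and almost no Y-linked RNA (Eif2s3y at 0.0371 and 0.0631 FPKM), while the epidermis libraries held Xist at 0 and 0.278 FPKM and Eif2s3y at 17.8 and 41.8 FPKM. Every difference between activated bulge and epidermis below therefore coincides with this sex-linked split and cannot be told apart from it. Only autosomal genes are given. The resting bulge libraries lay on the epidermis side, with Xist at 0.0406 and 0.0384 FPKM and Eif2s3y at 29.9 and 31.9 FPKM. Activated minus resting bulge thus carries the same split, while resting bulge minus epidermis does not. In bulk samples, fewer cells of a type and less RNA per cell cannot be told apart either.

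Of 12058 autosomal genes tested, 1531 (12.7%) were called, 1101 higher in activated bulge (9.13%) and 430 lower (3.57%). With only the 2 groups compared in the fit, 784 were called. The 2 groups did not overlap in 39.6% of all genes. With 2 libraries against 2, many genes separate in this way by ordering alone, so non-overlap by itself says little. The median difference over all genes was 0.11, with a median SE of 0.324. Among the called genes, 936 were higher and 383 lower by at least 1 on the log2 scale, and 149 and 41 by at least 3. The balance of directions depended on the scaling: quantile normalization gave 790 higher and 802 lower, and removing each library's trend with transcript length gave 1041 higher and 750 lower. The median over all genes became -0.05 under quantile normalization and 0.28 with equal library totals, so smaller differences are best read against that shift. Called genes had a median transcript length of 3182 nt when higher and 2931 nt when lower, against 2716 nt for all genes. Without activated replicate 2 the lower calls numbered 222.

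Tbx1 and Lhx2 led the 12 genes with the largest differences toward activated bulge, which also held the receptor Lgr5, a transporter and other proteins. Tbx1, a T-box transcription factor of the bulge (mm9 chr16:18581806-18587062), was at 87.3 and 146 FPKM in activated bulge against 0.647 and 1.46 in epidermis, a difference of 5.82 ± 0.31 (SE, limma adjusted p = 1.14e-05). Lhx2, a LIM-homeobox factor that maintains bulge cells (chr2:38206828-38225248), was at 113 and 194 against 1.11 and 2.45 FPKM, a difference of 5.78 ± 0.34 (limma adjusted p = 1.66e-05). Both activated libraries lay far above both epidermis libraries, and the resting bulge was at a similar level (149 and 130 FPKM for Tbx1, 205 and 145 for Lhx2). Lgr5, the R-spondin receptor of cycling stem cells (chr10:114887370-115024836), was at 27.1 and 74.4 against 0.209 and 0.778 FPKM (4.97 ± 0.42). Sox9, a transcription factor required for the follicle stem cell pool (chr11:112643524-112649071), was at 116 and 120 against 4.32 and 2.82 FPKM (4.72 ± 0.42). Its resting bulge level was 60.0 and 50.8 FPKM.

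The other 8 of the 12 genes with the largest higher differences spanned 4.77 to 5.50. Gli1, the transcription factor and target of Hedgehog signalling (chr10:126766938-126778635), was at 35 and 118 FPKM against 0.375 and 0.723, and at 23 and 14.9 in resting bulge. Ctgf, a matrix-associated protein also called CCN2 (chr10:24315248-24318488), was at 419 and 124 against 4.11 and 4.96 FPKM, and higher still in resting bulge at 815 and 1004. Shisa2, of a family that holds back Wnt and FGF receptors, was at 46.5 and 107 against 0.303 and 0.921 FPKM. Sox13, an SRY-box factor, was at 27.0 and 59.0 against 0.199 and 0.376 FPKM, with 4.67 and 2.48 in resting bulge. Sox13, Gli1, the amino acid transporter Slc38a4 (48.5 and 37.6 against 0.853 and 0.391 FPKM) and the proton pump subunit Atp6v1b1 (25.4 and 49.3 against 0.103 and 0.181 FPKM) were higher in the activated libraries than in both resting bulge libraries. The ubiquitin ligase Pdzrn3 (5.0 ± 0.37) and the small GTPase Rhoc (4.90 ± 0.32) completed this group.

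Ly6a and Ly6c1 led the 12 genes with the largest differences toward epidermis. Ly6a, the GPI-anchored surface protein Sca-1 used to sort epidermal cells away from bulge cells (chr15:74825307-74828318), was at 1164 and 602 FPKM in epidermis against 64.5 and 6.77 in activated bulge, a difference of -5.21 ± 0.88 (SE, limma adjusted p = 0.00315). Its neighbour Ly6c1 (chr15:74875445-74879260) was at 216 and 105 against 10.6 and 0.888 FPKM (-5.02 ± 0.78). Il1r2, the decoy receptor for interleukin-1 (chr1:40141613-40182070), was at 244 and 128 against 10.7 and 3.03 FPKM (-4.69 ± 0.63). Activated replicate 1 was the higher of the activated libraries in each of these 3 genes, yet stayed well under both epidermis libraries. The labels name no sort markers, so whether Ly6a, Cd34 or the integrin Itga6 took part in the sort is not given, and a gene used to sort would be no finding.

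Il20ra, a subunit of the receptors for IL-20 family cytokines (chr10:19432393-19479859), was at 41.3 and 97.6 FPKM in epidermis against 3.42 and 1.22 (-4.37 ± 0.49). Il22ra2, the soluble decoy receptor of IL-22 (chr10:19341834-19354487), is a near neighbour on that chromosome and was at 24.7 and 42.2 against 2.10 and 0.664 FPKM (-3.88 ± 0.43). The serotonin transporter Slc6a4 was at 52.0 and 41.5 against 2.09 and 0.582 FPKM (-4.42 ± 0.41). The remaining 6 of these 12 genes spanned -4.42 to -3.83. They were the carboxypeptidase-like Cpxm2, the tubulin-binding Tppp3, the cytochrome P450 Cyp2w1, the calcium exchanger Slc24a3, the phosphatase subunit Ppp2r2c and the tenascin Tnxb. All 24 leading genes were called again at 24 months in the same direction and stayed called when any 1 of the 4 libraries was left out. Atp6v1b1 lost its call under library weights.

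**Figure D1:**
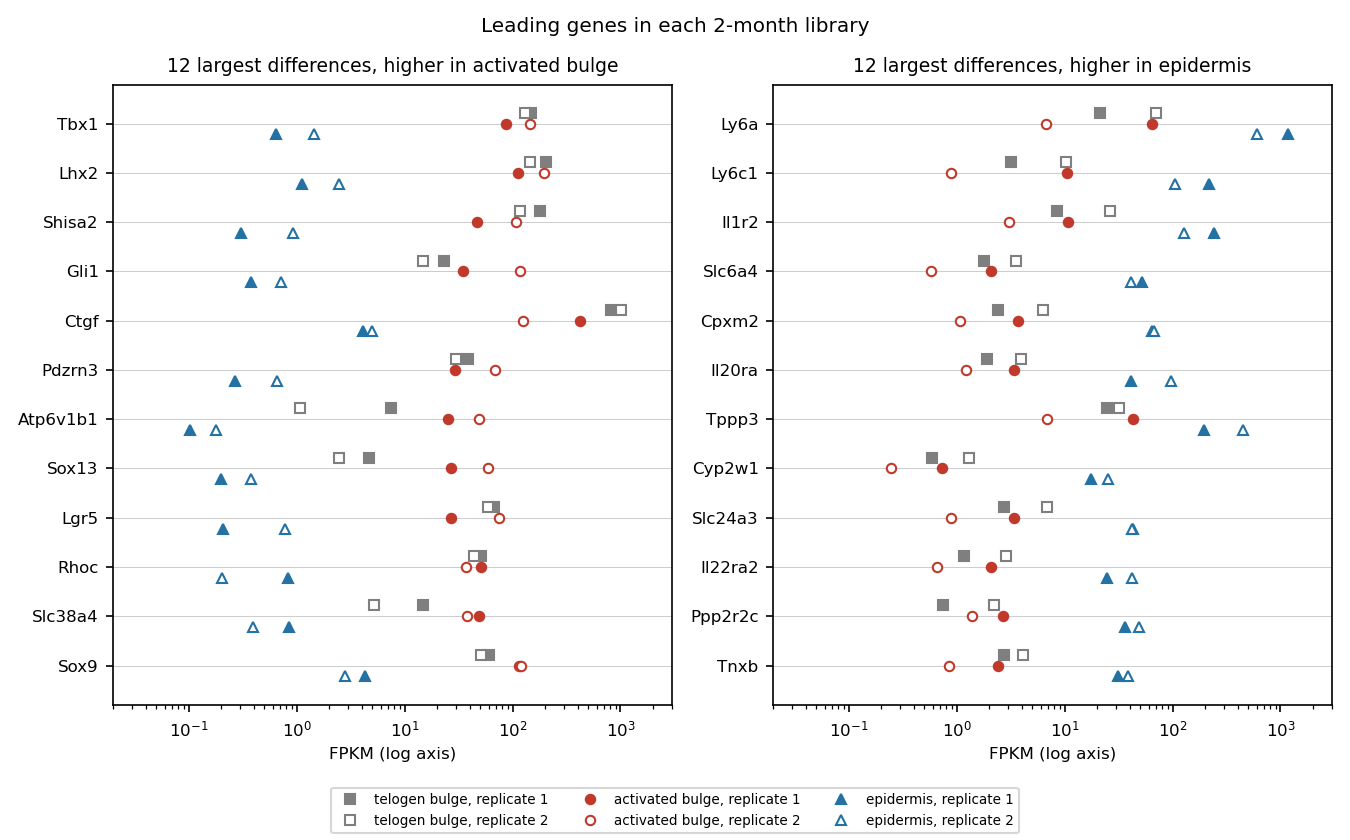
FPKM on a log axis of the 12 genes with the largest called differences in each direction (rows), in each 2-month library, with filled symbols for replicate 1 and open symbols for replicate 2. Activated bulge (red) and epidermis (blue) do not overlap in any of the 24 genes, and telogen bulge (grey) lies nearer to activated bulge than to epidermis for Tbx1 (149 and 130 FPKM) as for Ly6a (21.4 and 70.5 FPKM).

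Promoter sequences were read for the genes called in each direction. RefSeq promoter windows (build GRCm38.p6, 250 bases before to 50 after a gene's start) were matched by symbol for 8481 of the 12058 genes tested, and 6 motifs, none of which contains another, were searched on both strands. The AP-1 letters TGANTCA were present in 6.49% of all matched genes, 6.44% of those higher in activated bulge (48 of 745) and 10.3% of those lower (32 of 312). The TATA box TATAAA was in 8.9%, 10.3% and 12.5% in the same order, the TCF/LEF letters CTTTGAT in 2.98%, 4.43% and 3.53%, and the GLI letters GACCACCCA in 0.248%, 0.403% and 0%. The cyclic AMP response element TGACGTCA was in 3.78%, 1.74% and 2.56%, and the cell cycle homology region TTTGAA in 13.8%, 11.1% and 14.4%. These shares are a description without a test, and a match is not a bound site. Of the called genes picked by the naming rule, AP-1 letters were held by 5 of the 30 lower ones with a window and 1 of the 65 higher ones.

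The windows of these 6 genes are shown because they carry that motif, cut to the 250 bases before the start, 5′ to 3′ along the gene, with the match in capitals. Among genes higher in epidermis, Il20ra has its match beginning 164 bases before the start, Il1rn (the interleukin-1 receptor antagonist) at 141, Mmp3 (stromelysin 1) at 46, Dll1 (a Notch ligand) at 109 and Tnxb at 55. Prdm1, the repressor Blimp1, was higher in activated bulge and has its match 48 bases before the start. The windows lie in GRCm38.p6 at chr10:19712337-19712586 (plus strand), chr2:24336610-24336859 (plus strand), chr9:7445572-7445821 (plus strand), chr17:15376933-15377182 (minus strand), chr17:34670285-34670534 (plus strand) and chr10:44458749-44458998 (minus strand). Il1rn has 3 windows and Dll1 has 2, and the window with the match is given.
Il20ra: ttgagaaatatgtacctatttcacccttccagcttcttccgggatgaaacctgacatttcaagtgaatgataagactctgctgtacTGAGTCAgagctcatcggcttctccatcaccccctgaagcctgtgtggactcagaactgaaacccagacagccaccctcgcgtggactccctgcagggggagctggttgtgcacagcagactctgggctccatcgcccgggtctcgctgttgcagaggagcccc
Il1rn: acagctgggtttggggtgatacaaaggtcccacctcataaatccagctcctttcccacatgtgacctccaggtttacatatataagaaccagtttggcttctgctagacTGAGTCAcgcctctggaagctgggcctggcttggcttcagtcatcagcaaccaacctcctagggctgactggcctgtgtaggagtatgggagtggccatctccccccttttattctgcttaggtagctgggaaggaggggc
Mmp3: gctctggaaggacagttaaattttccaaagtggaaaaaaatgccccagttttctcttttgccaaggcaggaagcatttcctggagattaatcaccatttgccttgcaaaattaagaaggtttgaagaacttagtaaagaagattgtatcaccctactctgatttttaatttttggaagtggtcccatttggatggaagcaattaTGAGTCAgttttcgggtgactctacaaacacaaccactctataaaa
Dll1: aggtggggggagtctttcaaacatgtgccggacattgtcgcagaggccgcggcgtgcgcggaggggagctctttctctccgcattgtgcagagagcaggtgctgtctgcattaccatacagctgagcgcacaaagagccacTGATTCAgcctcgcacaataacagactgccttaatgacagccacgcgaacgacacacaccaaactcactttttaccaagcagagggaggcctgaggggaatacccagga
Tnxb: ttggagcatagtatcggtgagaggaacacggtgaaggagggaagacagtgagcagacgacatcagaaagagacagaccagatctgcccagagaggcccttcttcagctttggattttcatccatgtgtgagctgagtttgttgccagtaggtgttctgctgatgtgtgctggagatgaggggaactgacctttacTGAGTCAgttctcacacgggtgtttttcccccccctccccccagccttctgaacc
Prdm1: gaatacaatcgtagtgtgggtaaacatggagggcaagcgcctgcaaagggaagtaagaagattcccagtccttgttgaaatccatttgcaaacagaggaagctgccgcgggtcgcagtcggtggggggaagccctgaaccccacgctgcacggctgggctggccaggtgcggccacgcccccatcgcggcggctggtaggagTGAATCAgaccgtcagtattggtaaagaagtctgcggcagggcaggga

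The matches of Il20ra, Il1rn, Mmp3 and Tnxb read TGAGTCA. That of Dll1 (TGATTCA) and that of Prdm1 (TGAATCA) are the same letters read on opposite strands. Il1rn was at 84.0 and 62.2 FPKM in epidermis against 19.9 and 3.63 (-2.90 ± 0.64), Mmp3 at 57.2 and 18.3 against 10.7 and 0.355 (-3.07 ± 0.87) and Dll1 at 27.6 and 20.5 against 8.65 and 4.30 (-1.79 ± 0.36). Prdm1 was at 13.6 and 17.5 FPKM in activated bulge against 0.155 and 0.204 (3.80 ± 0.21, limma adjusted p = 1.14e-05), with 1.13 and 1.56 in resting bulge. The calls of Il1rn, Mmp3 and Dll1 were lost without activated replicate 2 (-1.81, -1.51 and -1.36) and without epidermis replicate 1 (-2.68, -2.27 and -1.59).

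As a group, bulge stem cell markers were higher in activated bulge. Of 28 listed genes, 19 were called higher and 0 lower, beside 9.13% and 3.57% of all genes. The median difference was 3.07 beside 0.11 for all genes, and 25 of 28 differences were positive. Cd34, the surface marker of the resting bulge, was at 89.1 and 58.5 FPKM in activated bulge against 2.46 and 5.71 in epidermis (3.92 ± 0.47, limma adjusted p = 0.000437). Its resting bulge level was 1064 and 1293 FPKM, so the activated libraries lay between resting bulge and epidermis. Krt24, a bulge keratin, had the same order, with 25.2 and 23.6 FPKM in activated bulge, 4.22 and 4.35 in epidermis and 532 and 610 in resting bulge (2.27 ± 0.33 over epidermis). Nfatc1, a regulator of bulge quiescence, was at 44.1 and 85.3 against 10.7 and 9.35 FPKM (2.50 ± 0.32), with 57.0 and 51.9 in resting bulge. Krt15, a keratin often used to mark the bulge, was at 2641 and 2499 FPKM in activated bulge and 5169 and 4153 in epidermis (-0.85 ± 0.55, limma adjusted p = 0.41), and at 13833 and 15638 in resting bulge. The label of activated bulge is thus met by 7 of the 8 bulge markers fixed for it, and Krt15 did not separate the groups in that direction.

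Of 25 transcription factors of the follicle 18 were called higher and 1 lower, with a median of 2.25. The 8 of them that are also on the bulge marker list were all called higher, and of the other 17, 10 were higher and 1 lower (median 1.43). Runx1, a Runt factor of the hair cycle, was at 22 and 27.4 against 1.54 and 0.994 FPKM (3.51 ± 0.38). Foxc1, a forkhead factor of bulge quiescence, was at 23.6 and 25.1 against 2.06 and 1.54 FPKM (3.18 ± 0.35). The vitamin D receptor Vdr, which the hair cycle requires, was at 215 and 259 against 39.7 and 26.7 FPKM (2.82 ± 0.32). These levels were steady between replicates. Foxi3, a forkhead factor of hair development, was at 11 and 11.1 FPKM in activated bulge, at 0.102 and 0.0693 in epidermis and at 3.57 and 0.454 in resting bulge (3.47 ± 0.42). The one member called lower was Sox21, at 11 and 3.91 against 29.5 and 20.6 FPKM (-1.74 ± 0.39), and its call was lost without activated replicate 2 (-1.09) or epidermis replicate 1 (-1.49). Of 20 epidermal transcription factors, 2 were called higher and 1 lower, near the shares of all genes (9.13% and 3.57%), with a median of 0.18 (-0.36 without activated replicate 1 and 0.60 without activated replicate 2). Trp63, the p63 regulator of basal keratinocytes, was at 202 and 285 FPKM in activated bulge and 167 and 217 in epidermis (0.33 ± 0.33, limma adjusted p = 0.63), so the groups overlapped.

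**Figure D2:**
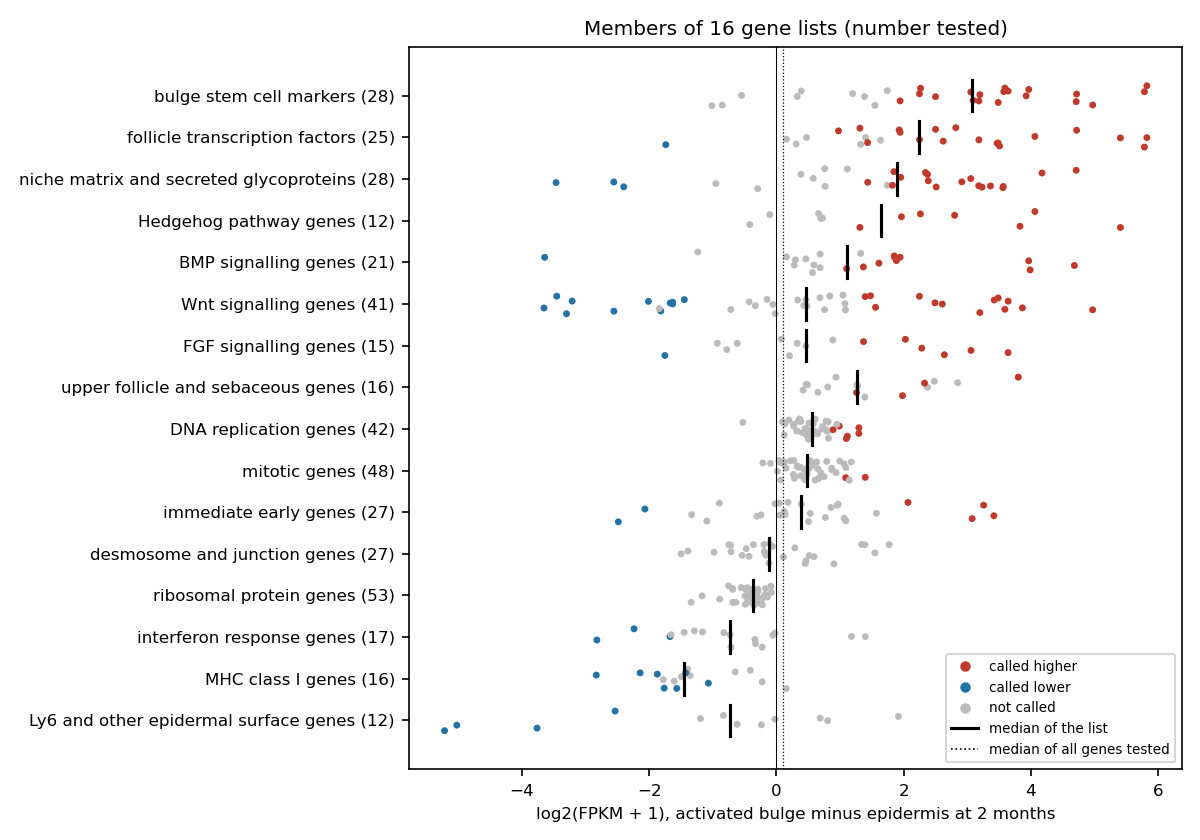
Difference in log2(FPKM + 1), activated bulge minus epidermis at 2 months, of the members of 16 gene lists (rows, number tested in brackets), with 1 point per gene and a black bar at the list's median. Bulge markers (median 3.07) and follicle transcription factors (2.25) lie to the right, MHC class I (-1.46) and Ly6 genes to the left, Wnt genes on both sides, and the dotted line marks the median of all genes (0.11).

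Wnt pathway genes split by role. Of 41 genes tested, 13 were called higher and 11 lower in activated bulge (median 0.47), beside 9.13% and 3.57% of all genes. Of 9 frizzled receptors 4 were higher and 1 lower, while of 10 Wnt ligands 1 was higher and 7 were lower. The receptor Fzd2 was at 47.7 and 59.1 against 4.23 and 2.59 FPKM (3.64 ± 0.34) and Fzd7 at 50.2 and 82.4 against 6.11 and 4.22 (3.42 ± 0.33). Of 4 secreted inhibitors tested (genes named Sfrp, Dkk or Wif) 3 were higher and 0 lower. Wif1, which binds Wnt proteins, was at 18.7 and 12 against 0.162 and 0.0341 FPKM (3.87 ± 0.29), and Sfrp1, a frizzled-related decoy, at 114 and 350 against 16.2 and 15.1 (3.59 ± 0.49). For all 4 genes both activated libraries lay above both epidermis libraries. Dkk3, of the Dickkopf family, was higher by 3.20 ± 0.29. Tcf7l1, the TCF3 repressor of the bulge, was at 10.8 and 17.1 against 0.271 and 0.337 FPKM (3.49 ± 0.27), and Tcf7l2 at 15.0 and 22.8 against 2.45 and 3.89 (2.25 ± 0.26).

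The ligands made by epidermis were the lower side. Wnt3 was at 73.8 and 50.9 FPKM in epidermis against 8.01 and 1.73 in activated bulge (-3.65 ± 0.53), Wnt3a at 26.8 and 13.6 against 1.66 and 0.271 (-3.45 ± 0.45), and Wnt4 at 143 and 98.3 against 37.7 and 21.9 (-2.01 ± 0.34). Wnt16 (-3.21 ± 0.41), Wnt6 (-1.67 ± 0.42), Wnt5a (-1.63 ± 0.25) and Wnt10a (-1.82 ± 0.52) were called lower too. Rspo3, the R-spondin that binds Lgr receptors, was at 4.28 and 7.43 in epidermis against 0.225 and 0.0562 FPKM (-2.55 ± 0.26), so the receptors Lgr5 and Lgr4 (2.61 ± 0.42) and this ligand lay on opposite sides. The receptor Fzd10 was the exception among frizzled genes, at 52.0 and 32.0 in epidermis against 6.07 and 1.56 FPKM (-3.30 ± 0.52). Lef1, the TCF family factor of the hair germ, was at 2.16 and 0.350 FPKM in activated bulge and is listed at 0 in both epidermis libraries (limma adjusted p = 0.0799, but 0.0424 with the replicate block and 0.00295 without activated replicate 2). Axin2, the feedback target read as a gauge of canonical Wnt signalling, was at 19.7 and 23.4 FPKM in epidermis against 7.15 and 5.47 in activated bulge (-1.63 ± 0.31, limma adjusted p = 0.00621), and at 9.12 and 10.9 in resting bulge. Wnt5b was the ligand called higher, at 7.01 and 11.1 against 2.79 and 1.94 FPKM (1.56 ± 0.36). With 1 library left out at a time, 11 to 14 members were called higher and 8 to 11 lower. Wnt10a lost its call without activated replicate 2 (-1.44) or epidermis replicate 1 (-1.29), Wnt5b without activated replicate 2 (1.26) or epidermis replicate 2 (1.37), and Wnt6 without any library but epidermis replicate 2 (-1.82 to -1.39).

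**Figure D3:**
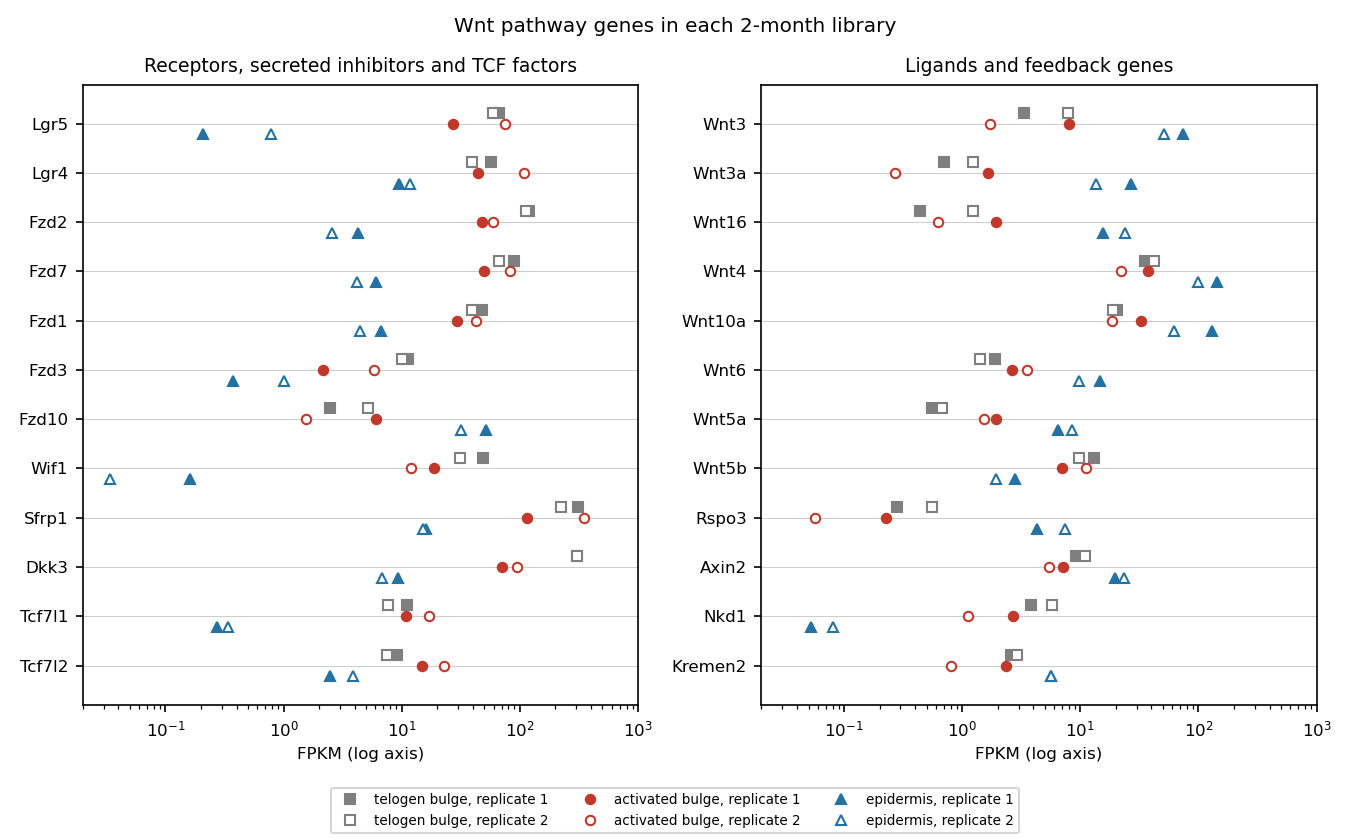
FPKM on a log axis of Wnt pathway genes in each 2-month library, receptors, secreted inhibitors and TCF factors on the left, ligands and feedback genes on the right, with symbols as in the plot of leading genes. The genes were picked with their values known, and not all members tested are shown. Of 9 frizzled receptors tested, 4 were called higher and 1 lower. Except for Fzd10, the genes shown on the left are higher in activated bulge (red) than in epidermis (blue). The ligands Wnt3 and Wnt3a on the right are higher in epidermis, at 73.8 and 50.9 FPKM and at 26.8 and 13.6 FPKM.

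Hedgehog genes were called higher in activated bulge in 7 of 12 tested and lower in 0 (median 1.64), beside 9.13% and 3.57% of all genes. In the fit of resting bulge minus epidermis 6 were called higher and 0 lower, where 12.9% and 7.20% of all genes were. Activated minus resting bulge called 1 higher and 1 lower, beside 6.64% and 6.16% of all genes. These fits share libraries with the main one. The signal transducer Gli2 was at 11.7 and 33.7 against 0.215 and 0.299 FPKM (4.06 ± 0.40), and at 9.65 and 6.67 in resting bulge. The receptor and target Ptch1 was at 9.56 and 67.0 against 2.63 and 3.07 FPKM (2.80 ± 0.74). In Gli1, Gli2 and Ptch1, activated replicate 2 was the higher library throughout. The co-receptors Boc (45.2 and 69.8 against 11.8 and 10.1 FPKM, 2.26 ± 0.28) and Gas1 (108 and 149 against 45.5 and 22 FPKM, 1.97 ± 0.39) and the factor Gli3 (1.31 ± 0.32) were called too. Boc was at 69.3 and 56.7 FPKM in resting bulge. The ligand Shh was under the filter on low values. Without activated replicate 2, 4 members were called. Ptch1, Gas1 and Gli3 lost their calls there (1.46, 1.73 and 0.87). Ptch1 and Gli3 also lost them without epidermis replicate 1 (2.72 and 1.13), and Ptch1 and Gas1 without epidermis replicate 2 (2.88 and 1.46).

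BMP pathway genes showed antagonists and feedback genes higher and 1 ligand lower. In all, 10 of 21 were called higher and 1 lower (median 1.10), beside 9.13% and 3.57% of all genes. The antagonist Grem1 was at 28.8 and 80.4 against 0.284 and 1.86 FPKM (4.68 ± 0.49) and Fst (follistatin, which binds activins and BMPs) at 122 and 95.1 against 5.50 and 6.43 (3.97 ± 0.50). Nog (noggin) was at 3.46 and 2.60 against 0.430 and 0.687 FPKM (1.37 ± 0.21), and at 32.5 and 27.9 in resting bulge. Id2, a BMP target that opposes bHLH factors, was at 33.2 and 37.0 against 8.53 and 8.19 FPKM (1.95 ± 0.25), far under its 289 and 235 in resting bulge. The inhibitory Smad7 and Smad6 were higher by 1.85 ± 0.26 and 1.61 ± 0.18. Bmp4, a ligand, went the other way, at 1.73 and 0.551 FPKM in activated bulge against 21.4 and 28.5 in epidermis (-3.64 ± 0.33, limma adjusted p = 9.14e-05).

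In the TGF-beta family 7 of 23 genes were called higher and 1 lower (median 0.75), beside 9.13% and 3.57% of all genes. The ligands Inhbb, a subunit of activin B, and Tgfb3 were at 42.2 and 35 against 2.83 and 0.943 FPKM (3.85 ± 0.47) and at 24.7 and 42.4 against 1.98 and 1.81 FPKM (3.53 ± 0.33). Their resting bulge levels were 13.4 and 7.73 FPKM and 14.2 and 9.32 FPKM. The latent-binding protein Ltbp2 was at 9.51 and 11.8 against 0.195 and 0.629 FPKM (3.06 ± 0.23), and at 75.4 and 88.2 in resting bulge. The co-receptor Tgfbr3 was lower (-1.39 ± 0.27). Of 15 FGF genes, 6 were called higher and 1 lower (median 0.47, but 0.81 without activated replicate 2). The receptor Fgfr1 was at 56.7 and 101 against 4.18 and 6.31 FPKM (3.64 ± 0.38), while Fgfr3 was at 26.1 and 28.7 against 104 and 85.7 FPKM (-1.75 ± 0.28), so these 2 receptors lay on opposite sides. Dusp6, the phosphatase that limits ERK signalling, was at 197 and 204 against 42.9 and 22.9 FPKM (2.64 ± 0.61), and at 27.8 and 24.1 in resting bulge. The call of Dusp6 was lost without any library except epidermis replicate 1 (2.20 to 2.67), and that of Tgfbr3 without activated replicate 2 (-1.07). Of 13 Notch genes, Jag1 was called higher (55.1 and 54.7 against 16.7 and 21.2 FPKM, 1.5 ± 0.29) and Dll1 lower. Of 11 EGF receptor genes 0 were called higher and 1 lower, a call lost without any 1 of the 4 libraries. The Notch and EGF counts are near the shares of all genes.

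Both populations carried cell cycle transcripts, with small differences that mostly leaned toward activated bulge. Of 48 mitotic genes 2 were called higher in activated bulge and 0 lower (median 0.48), and of 42 DNA replication genes 6 higher and 0 lower (median 0.55), against 9.13% and 3.57% of all genes. The replication median was 0.92 without epidermis replicate 1 and 0.14 without epidermis replicate 2. Mki67, the Ki-67 antigen of dividing cells, was at 33.2 and 81.4 FPKM in activated bulge and 13.0 and 49.7 in epidermis (0.99 ± 0.67, limma adjusted p = 0.433), so the groups overlapped. Ccnb1, the cyclin of entry into mitosis, was at 42.6 and 35.9 against 50.9 and 29.3 FPKM (0.02 ± 0.37, limma adjusted p = 0.988), again overlapping. Top2a, a topoisomerase of dividing cells, was at 80.9 and 116 against 36.5 and 57.5 FPKM (1.06 ± 0.41, limma adjusted p = 0.142). With the replicate number as a block in the 8 activated and epidermis libraries, a setting chosen after seeing the data, Top2a was called (limma adjusted p = 0.016) and 5 mitotic genes were called higher. The helicase subunits Mcm2 (52.1 and 54.5 against 54.7 and 25.3 FPKM) and Mcm5 (81.9 and 68.7 against 66.1 and 26.9 FPKM) were not called (both were without epidermis replicate 1, at 1.04 and 1.44, and Mcm5 also with equal library totals), nor was the inhibitor Cdkn1a (118 and 58.3 against 138 and 144 FPKM). Missing calls do not show that levels were alike.

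The 2 mitotic calls were the condensin subunit Ncapg (17.6 and 19.2 against 4.78 and 8.37 FPKM, 1.40 ± 0.33) and the checkpoint kinase Bub1 (9.82 and 10.3 against 3.37 and 5.18 FPKM, 1.09 ± 0.28). The replication calls spanned 0.89 to 1.30 and included the helicase subunit Mcm4, at 53.4 and 56.5 against 27.4 and 22.4 FPKM (1.12 ± 0.29). Although few genes were called, differences leaned 1 way: 46 of 48 mitotic and 41 of 42 replication genes were positive. The median over all genes was also positive, at 0.11. In 23 mitotic and 25 replication genes both activated libraries lay above both epidermis libraries, where 27.3% of all genes did. Members of a list come from the same 4 libraries and are not separate observations. Replication calls numbered 3 without activated replicate 1, 0 without activated replicate 2, 13 without epidermis replicate 1 and 0 without epidermis replicate 2, and mitotic calls 1, 0, 1 and 4 in the same order. Bub1 lost its call without either activated replicate (1.12 and 1.06) or epidermis replicate 1 (0.84), Ncapg without the same 3 libraries (1.46, 1.34 and 1.05) and Mcm4 without any 1 of the 4 (0.98 to 1.26). In the fit of resting bulge minus epidermis, 46 mitotic and 27 replication genes were called lower, where 7.20% of all genes were. In the fit of activated minus resting bulge, 47 and 32 were called higher and 0 and 0 lower, where 6.64% and 6.16% of all genes were. These fits share libraries with the main one and are given side by side only. The inhibitor Cdkn1c was at 0.774 and 0.581 FPKM in activated bulge, 1.21 and 0.739 in epidermis and 6.90 and 7.26 in resting bulge (activated minus epidermis -0.23 ± 0.29, limma adjusted p = 0.724).

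**Figure D4:**
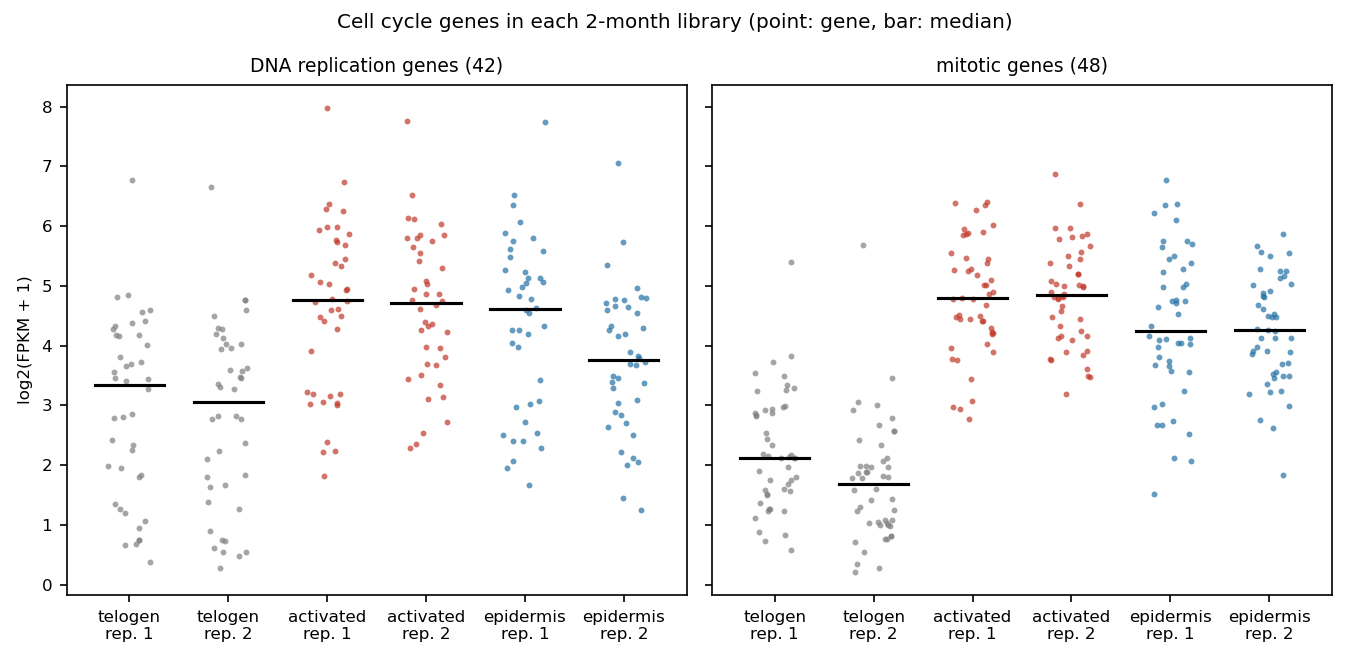
Log2(FPKM + 1) of 42 DNA replication genes (left) and 48 mitotic genes (right) in each 2-month library, with 1 point per gene and a bar at the library's median. The mitotic medians are 4.79 and 4.85 in activated bulge, 4.25 and 4.26 in epidermis and 2.13 and 1.69 in telogen bulge. The replication medians are 4.76 and 4.72, 4.62 and 3.75, and 3.34 and 3.05.

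Niche matrix genes were mostly called higher in activated bulge. Of 28 niche matrix and secreted glycoproteins 17 were called higher and 3 lower (median 1.90), beside 9.13% and 3.57% of all genes. Postn (periostin) was at 1246 and 1154 FPKM in activated bulge against 55.7 and 36.0 in epidermis (4.71 ± 0.83), and Col6a2, a collagen VI chain, at 30.0 and 17.5 against 0.217 and 0.443 (4.17 ± 0.31). Igfbp3, an IGF-binding protein, was on the other side at 29.2 and 19.3 against 236 and 313 FPKM (-3.46 ± 0.46), while its relatives Igfbp4 and Igfbp5 were higher in activated bulge (3.56 ± 0.51 and 3.18 ± 0.22). Of 26 hemidesmosome and basement membrane genes 8 were called higher and 1 lower (median 0.07, but -0.24 without activated replicate 2). The higher ones included Col4a1, a collagen IV chain (19.9 and 21.0 against 2.99 and 2.73 FPKM, 2.47 ± 0.30), and the integrin Itgb8 (8.91 and 18.9 against 0.845 and 0.372 FPKM, 3.14 ± 0.39). Itga6, the integrin of hemidesmosomes used to sort basal cells, was lower at 84.0 and 97.3 against 180 and 224 FPKM (-1.14 ± 0.29), a call lost without activated replicate 1 (-1.04), activated replicate 2 (-1.25) or epidermis replicate 2 (-0.99). Its partner Itgb4 was at 164 and 104 against 231 and 159 FPKM (-0.55 ± 0.46, limma adjusted p = 0.547). Of 27 desmosome and junction genes 0 were called by limma (unadjusted p under 0.05 in 3 of 27), with a median of -0.12 (0.07 without activated replicate 2).

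Among 18 metalloproteases and their inhibitors 5 were called higher and 4 lower (median 0.18, but 0.03 without activated replicate 2). Over all genes 9.13% were called higher and 3.57% lower. The inhibitors Timp2 and Timp3 were higher, at 73.6 and 73.9 against 2.58 and 1.97 FPKM (4.52 ± 0.28) and at 42.3 and 65.8 against 8.05 and 8.91 FPKM (2.50 ± 0.28). Timp3 was at 9.48 and 8.57 FPKM in resting bulge, under the activated libraries, and Timp2 at 220 and 234, above them. Proteases of epidermis included Mmp28 (30.4 and 24.7 FPKM there against 1.81 and 0.609 FPKM, -3.74 ± 0.39) and Adamts14 (23.1 and 36.8 FPKM there against 1.75 and 1.32 FPKM, -3.58 ± 0.36). Of 34 guidance genes 8 were called higher, led by Sema3e (16.4 and 30.1 against 0.256 and 0.642 FPKM, 4.02 ± 0.30), and 6 lower, with Sema3d (-2.63 ± 0.55), Sema3c (-2.06 ± 0.37) and Sema3f (-1.91 ± 0.39) among them (median 0.29, but 0.08 without activated replicate 2). Secreted class 3 semaphorins, which steer axons and vessels, thus lay on both sides. Without activated replicate 2 the guidance calls numbered 4 higher and 2 lower, and without epidermis replicate 1 there were 3 lower. Sema3d lost its call without activated replicate 2 (-2.05) or epidermis replicate 2 (-1.83), and Sema3f without activated replicate 2 (-1.71) or epidermis replicate 1 (-1.73). Metalloprotease calls numbered 3 higher without either epidermis replicate and 2 lower without activated replicate 2 or epidermis replicate 1, and their median was -0.12 without epidermis replicate 2.

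Few barrier genes of the differentiating epidermal layers were called. Of 44 tested, 4 were called higher in activated bulge and 1 lower (median 1.04), near the 9.13% and 3.57% of all genes, and activated replicate 1 stood apart. Lor (loricrin, the main cornified envelope protein) was at 848 and 39.3 FPKM in activated bulge against 22.5 and 2.29 in epidermis (4.39 ± 1.85, limma adjusted p = 0.18). Krt10, the keratin of suprabasal cells, was at 4325 and 318 against 1673 and 1831 FPKM (-0.58 ± 1.04, limma adjusted p = 0.817), Krt1 at 1854 and 141 against 1355 and 1037 (-1.21 ± 1.0, limma adjusted p = 0.546) and Ivl (involucrin) at 76.8 and 5.37 against 10.3 and 7.85 (1.16 ± 1.08, limma adjusted p = 0.607). For Krt10, Krt1 and Ivl the epidermis libraries lay between the activated ones. The late envelope genes Lce1f (84.7 and 5.83 against 0.660 and 0.135 FPKM, 4.14 ± 1.10), Lce1d (4.14 ± 0.99) and Lce1g (3.19 ± 0.76) and the calmodulin-like Calml3 (262 and 207 against 21.3 and 11.3 FPKM, 3.82 ± 0.41) were called higher, and the transglutaminase Tgm3 lower (5.64 and 0.675 against 21.6 and 13.1 FPKM, -2.42 ± 0.55). The number called higher was 1 without activated replicate 1, 11 without activated replicate 2 and 1 without either epidermis replicate, and 4 genes were called lower without activated replicate 1. With the replicate block 7 were called higher over all 12 libraries and 15 in the 8 activated and epidermis libraries, where Lor was called (limma adjusted p = 0.00166). The list's median was -0.43 without activated replicate 1 and 2.78 without activated replicate 2. Lce1f, Lce1d and Lce1g lost their calls without activated replicate 1 (2.31, 2.64 and 1.84) or either epidermis replicate (3.05 to 4.64), and Tgm3 without activated replicate 2 (-1.43) or epidermis replicate 1 (-2.08). Krt1 was called lower without activated replicate 1 (-3.07). The fixed epidermis markers Krt1, Krt10, Krt77, Ivl and Lor therefore did not set the epidermis libraries apart, while Ly6a did.

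Activated replicate 1 also held transcripts of dermal cells. The summed level of 14 fibroblast and dermal papilla markers was 455 and 15.7 FPKM in activated bulge against 5.30 and 7.65 in epidermis. Col1a1, the fibrillar collagen chain of dermal fibroblasts, was at 101 and 3.46 against 0.125 and 0.0695 FPKM, and Col1a2 at 76.0 and 5.58 against 0.0824 and 0.0633. Dcn (decorin) was at 112 and 0.279 against 0.352 and 0 FPKM, so activated replicate 1 held the most by far and both epidermis libraries were near 0. Of the 7 tested, 3 were called higher (Col1a2, Col1a1 and Crabp1) and 1 lower (Rspo3). Col1a1 was not called without either epidermis replicate (4.32 and 4.24), and Dcn was called without activated replicate 2 (6.60 there, 3.37 with all libraries), where 6 of the 7 were called higher. Summed endothelial markers were at 14.3 and 5.86 against 2.06 and 0.542 FPKM, melanocyte markers at 10.7 and 10.4 against 2.57 and 4.21, and Langerhans and myeloid markers at 123 and 20.9 against 119 and 42.4. T cell markers summed to 34.8 and 30.1 against 188 and 63.9 FPKM, most of it Thy1 except in activated replicate 2 (24.4 and 4.80 against 181 and 54.2), while Cd3e was at 0.447 and 1.46 against 0.702 and 0.395. Merkel cell markers summed to at most 4.66 FPKM in these 4 libraries, and markers of muscle, fat, nerve and blood to 55.7 and 22.8 against 32.7 and 21.1. The part of other cells in the differences above was not tested. Without activated replicate 1 the median of the bulge markers was 3.08, beside 3.07 with all libraries. This does not measure the part of other cells, since activated replicate 2 also held Col1a1 and Col1a2 (3.46 and 5.58 FPKM).

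**Figure D5:**
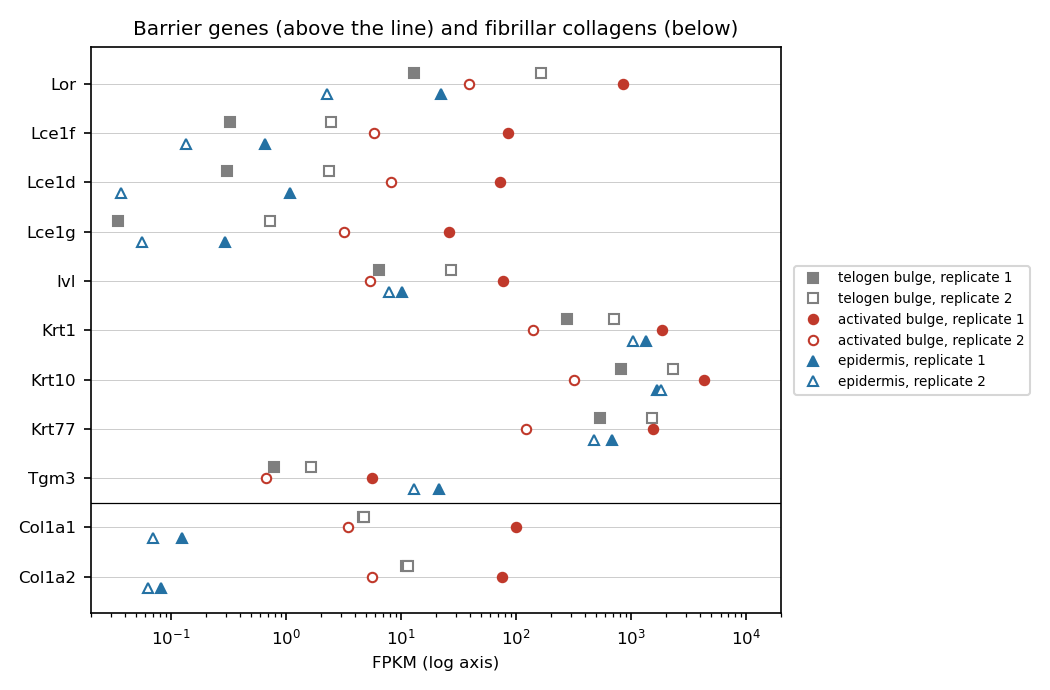
FPKM on a log axis of 9 barrier genes and 2 fibrillar collagen genes (rows) in each 2-month library, with filled symbols for replicate 1 and open symbols for replicate 2. Activated replicate 1 (filled red) is the highest library for Lor (848 FPKM) and Krt10 (4325 FPKM), while activated replicate 2 (open red) is at 39.3 and 318 FPKM.

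Keratins and genes of other follicle compartments were called higher in activated bulge or not called, except for 4 genes of the hair germ list. Over all genes 9.13% were called higher and 3.57% lower. The basal layer keratins Krt5 and Krt14 could not be tested because they are listed at 0 in 7 and 3 of the 12 libraries fitted. Epidermis replicate 1 is among these for both. Krt14 was at 11522 and 2896 FPKM in activated bulge and 8022 in epidermis replicate 2, and Krt5 at 11345, 5294 and 10031 FPKM in the same libraries. Krt17, a keratin of the outer root sheath and of stressed epidermis, was at 2344 and 2659 against 869 and 276 FPKM (2.35 ± 0.54), while the stress keratins Krt6a (1245 and 227 against 1707 and 289 FPKM) and Krt16 (1777 and 291 against 3062 and 743 FPKM) were higher in replicate 1 of both populations and were not called (limma adjusted p = 0.871 and 0.587). Krt17 lost its call without activated replicate 2 (2.26) or epidermis replicate 2 (1.52). Of the 9 outer sheath and stress keratins 3 were called higher and 0 lower, but 1 without either activated replicate and 0 without epidermis replicate 2. Of 16 upper follicle and sebaceous genes 4 were called higher and 0 lower, with all 16 differences positive (median 1.27, but 0.77 without activated replicate 1 and 2.04 without activated replicate 2). That count was 7 with the replicate block in the 8 libraries, 2 without activated replicate 1, 7 without activated replicate 2 and 1 without epidermis replicate 2. Of 14 hair matrix and sheath genes 6 were called higher and 0 lower (median 1.04, or 0.53 without activated replicate 1), but apart from Hoxc13 (7.66 and 9.75 against 0.103 and 0.203 FPKM, 3.07 ± 0.22), a homeobox factor of hair keratins, levels of the called genes stayed under 6 FPKM in all 4 libraries, and 3 were called without epidermis replicate 2. Of 11 hair germ and early growth-phase genes 2 were called higher and 4 lower, the lower ones including Tnfrsf19 (Troy), at 13.8 and 4.39 against 90.3 and 102 FPKM (-3.44 ± 0.48), and 1 was called higher without either epidermis replicate.

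The MHC class I, interferon, Ly6 and wound lists held more genes called lower than higher, where over all genes 3.57% were lower and 9.13% higher. Of 16 MHC class I genes 7 were called lower and 0 higher (median -1.46), and 12 were lower with the replicate block. H2-K1 was at 360 and 262 FPKM in activated bulge against 1353 and 805 in epidermis (-1.76 ± 0.43) and H2-Q7 at 19.3 and 13.7 against 182 and 81.7 (-2.83 ± 0.38). These loci share sequence, so reads may be split between them. In resting bulge H2-K1 was at 361 and 452 FPKM, close to the activated level. Of 17 interferon response genes 3 were called lower and 0 higher (median -0.73, but -1.12 without epidermis replicate 2), led by Usp18 (1.54 and 1.60 against 21.1 and 13.9 FPKM, -2.82 ± 0.38), and resting bulge held Usp18 at 20.5 and 24.0 FPKM. Without epidermis replicate 1 the class I calls numbered 4, and H2-K1 lost its call there (-1.39) and without activated replicate 2 (-1.54). The interferon calls numbered 1 without activated replicate 2 or epidermis replicate 1 and 6 without epidermis replicate 2. Of 12 Ly6 and related surface genes 4 were called lower and 0 higher (median -0.72, but 0.36 without activated replicate 2). Of 27 wound and inflammation genes 1 was called higher and 3 lower (median -0.07), among the latter the alarmin Il33 (20.1 and 4.90 against 95.0 and 99.3 FPKM, -3.14 ± 0.52). The lower wound calls numbered 5 without activated replicate 1 and 1 without activated replicate 2 or epidermis replicate 1, and the median was 1.02 without activated replicate 2. Of 23 JAK-STAT genes 2 were called higher and 1 lower, near the shares of all genes, the lower one being Il20ra.

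Immediate early genes lay on both sides, with 4 of 27 called higher and 2 lower, beside 9.13% and 3.57% of all genes. The median was 0.39, from 0.19 without epidermis replicate 1 to 0.72 without epidermis replicate 2. Egr3, a zinc-finger factor induced by growth signals, was at 46.0 and 189 against 5.48 and 18.4 FPKM (3.08 ± 0.66), and the orphan receptor Nr4a3 at 23.6 and 39.0 against 0.939 and 3.43 (3.42 ± 0.61). Both were under 6 FPKM in resting bulge, at 3.55 and 5.50 and at 0.598 and 0.335. Klf2 was at 10.4 and 13.6 against 65.3 and 77.5 FPKM (-2.48 ± 0.29) and Dusp1 at 506 and 225 against 1503 and 1334 FPKM (-2.07 ± 0.57). Fos was high everywhere, at 1386 and 1563 FPKM in activated bulge and 3325 and 2964 in epidermis, and its difference was not called (-1.09 ± 0.55, limma adjusted p = 0.272). Jun (971 and 606 against 590 and 841 FPKM) and Egr1 (697 and 951 against 791 and 691 FPKM) overlapped between the groups. Without activated replicate 2 or epidermis replicate 1, 2 and 1 genes were called higher, and Egr3 lost its call (2.07 and 2.29). Dusp1 lost its call without activated replicate 2 (-1.48) or either epidermis replicate (-1.98 and -2.15), so that Klf2 was then the 1 gene called lower.

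Metabolic lists differed in how many genes were called, beside 9.13% higher and 3.57% lower over all genes. Of 25 fatty acid synthesis and lipid barrier genes 7 were called higher and 0 lower (median 0.52, but 0.14 without activated replicate 1 and 1.25 without activated replicate 2), with the desaturase Fads1 at 8.05 and 15.7 against 0.970 and 0.534 FPKM (2.82 ± 0.33) and the ceramide synthase Lass4 at 44.6 and 17.6 against 3.18 and 0.702 FPKM (3.45 ± 0.45). Of 19 cholesterol synthesis genes 1 was called higher (median 0.81, but 0.40 and 1.47 without the same libraries), and of 22 glycolysis genes 2 higher and 2 lower (median -0.25). Hk2, the hexokinase that starts glycolysis, was at 24.9 and 62.0 against 4.33 and 4.88 FPKM (2.85 ± 0.40), and Slc16a3, the lactate exporter MCT4, at 3.44 and 1.35 against 25.5 and 12.3 FPKM (-2.53 ± 0.52). Slc16a3 lost its call without activated replicate 2 (-2.08) or epidermis replicate 1 (-2.04), where 0 glycolysis genes were called lower and the median was 0.10 and 0.14. Cholesterol calls numbered 5 without activated replicate 2, and 3 lipid barrier genes were called lower without activated replicate 1. Of 53 ribosomal protein genes 0 were called by limma (unadjusted p under 0.05 in 0 of 53), although all 53 differences were negative (median -0.36), and of 54 oxidative phosphorylation genes 0 were called (unadjusted p under 0.05 in 0 of 54, median -0.12). The ribosomal median was -0.01 under quantile normalization, 0.06 without activated replicate 2 and 0.21 without epidermis replicate 1, and the oxidative phosphorylation median 0.06 under equal library totals and 0.36 and 0.43 without the same 2 libraries.

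The same contrast at 24 months, made of 4 other libraries, called 1004 genes higher (8.33%) and 511 lower (4.24%). It came from the same fit, where the spread of a gene is shared by all groups, so calls at both ages are not independent. Of the genes called at 2 months, 841 higher ones and 367 lower ones were called again in the same direction, 76.4% and 85.3% of the 2-month lists and 83.8% and 71.8% of the 24-month lists, and 0 were called in opposite directions. The 24-month libraries carry the same sex-linked split. Tbx1 differed by 6.18, Lhx2 by 6.45, Lgr5 by 4.87 and Ly6a by -4.94 at 24 months. The difference between the ages in this contrast was called for 0 genes by limma, with 153 at an unadjusted p under 0.05 and a median SE of 0.459. That p does not show the contrasts to be alike. At 24 months 0 DNA replication and 0 mitotic genes were called in either direction, with medians of 0.28 and 0.22. Of the immediate early genes 0 were called higher and 4 lower there, with a median of -0.79 beside 0.39 at 2 months. Egr3 (1.14) and Nr4a3 (0.99), called higher at 2 months, were not called at 24 months.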

How the data were processed

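Sorted cells of mouse dorsal skin had been profiled by mRNA sequencing. The authors deposited FPKM values per transcript for which TopHat, Cufflinks and mm9 are named, without versions, per the submitters' processing notes. FPKM removes depth and transcript length, so counts and their error are not in these values. Depths were estimated from the upper confidence bound deposited with each FPKM. For this, genes with a single transcript over 1500 nt and under 200 estimated fragments were used. Per the labels, the series has 14 libraries. The 2 wounded ones are not used here, being on another annotation and scale.

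FPKM was summed per gene and divided by 1 constant for the 12 libraries (16804.8), because the deposited values lie far above the usual FPKM scale. This leaves ratios between libraries as deposited. Kept genes had at least 1 FPKM in at least 2 libraries and a transcript of at least 300 nt (12462 genes, 12058 autosomal). A further 20 genes listed at 0 in at least 1 of the 12 libraries but at 1000 FPKM or more in another were left out. limma 3.58.1 (R 4.3.3) was fitted to log2(FPKM + 1) with 6 group means of 2 libraries each, a trended prior, two-sided tests and Benjamini-Hochberg adjustment over all genes, after a check on simulated data. The comparison, the members and all gene lists were chosen with earlier results of these data known. Genes named were the 12 largest called differences in each direction that did not overlap and had a group mean of at least 5 FPKM, the 4 smallest p-values of each list at a mean of at least 1 FPKM, and fixed markers. Other list members were named after their values were seen. Of the 190 genes that the rule picks, the text gives 103, the choice among them made with their values known. RefSeq promoter windows are of GRCm38.p6, matched by symbol, while gene positions are those of the deposited mm9 files. Alternatives covered the pseudocount, the filter, scaling, transcript choice, library weights, the groups fitted, the replicate block and each library left out.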

Additional observations from a re-analysis of the deposited data

How the results depend on the processing

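The 1531 calls at 2 months became 640 under library weights and 784 when only the groups compared were fitted (455 and 584 of 1101 higher, 185 and 200 of 430 lower). The lower calls numbered 750 with the length trend removed and 802 under quantile normalization. Leaving out 1 library gave 802 to 1010 higher and 222 to 494 lower, the lowest lower count without activated replicate 2. At 24 months library weights gave 614 higher and 328 lower, the length trend 838 lower, and leaving out 1 library 638 to 753 higher and 272 to 450 lower. The age difference called 3 genes with no filter on low values and 0 to 1 with a library left out. Resting bulge against epidermis called 2420 genes, and 1248 to 2401 with a library left out. Activated against resting bulge called 1544, then 2371 with the length trend removed, 931 with only the groups compared, 2591 under quantile normalization, 2341 with the replicate block and 401 to 1471 with a library left out.

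The 118 named called genes kept their direction under each setting (116 could be tested with the 5 FPKM filter), and 90 (library weights) to 118 were called. With only the groups compared in the fit, 98 of the 118 were called. Those not called then included Jag1, Axin2, Fgfr3, Wnt4, Krt17, Itga6 and H2-K1 (limma adjusted p from 0.0512 to 0.385). Of the genes not called in the main fit, some changed sign. Ccnb1 was at -0.06 and Jun at -0.01 with the length trend removed, and Cd3e was at -0.20 under quantile normalization. With a library left out Ccnb1 spanned -0.37 to 0.40, Cd3e -0.09 to 0.68, Ivl -0.65 to 2.96, Krt1 -3.07 to 0.64, Krt10 -2.46 to 1.30, Krt16 -2.37 to 0.24, Krt6a -1.68 to 0.88, Krt77 -2.21 to 1.46, Jun -0.22 to 0.46, Egr1 -0.09 to 0.36 and Mcm2 -0.04 to 1.04.

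The labels do not say that replicate numbers pair libraries. Deviations of same-numbered libraries correlated at 0.511 between activated bulge and epidermis at 2 months, and at 0.184 to 0.787 over the pairs of activated and epidermis groups at both ages, with only 2 numbers in each. With the replicate block 1263 genes were called higher and 516 lower, and with the block in the activated and epidermis libraries alone, a setting chosen after seeing the data, 1259 and 618. Each group has 2 libraries. Fragment counts are not in the files. The deposited confidence bounds served for the depth estimates alone, so the counting error that low genes carry is not given.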
